A study of Mus musculus with 8 samples.

Results

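The peak lists of H3.3-HA ChIP-seq held 1103 regions, of 58310 in all, with an H3.3 peak in both Hira-null and WT cells at day 15 and in neither genotype at day 0. These gained shared regions were chosen by the peak calls themselves. All peaks of the 4 lists were merged into regions, and a region was kept when a Hira-null day 15 peak and a WT day 15 peak overlapped it by at least 1 bp and no day 0 peak did. Their peaks at day 15 and their lack of peaks at day 0 are therefore the choice and not a result. They held 1157 of the Hira-null day 15 peaks (15.8%) and 1147 of the WT day 15 peaks (4.21%). For comparison, 3628 regions were gained in Hira-null cells only, 19836 were gained in WT cells only, 296 had a peak in all 4 lists, and 4724 were shared at day 0 and had no peak at day 15.

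The Hira-null cells were the mESC line Clone 104, which is 1 clone, and the WT cells were the mESC line W9.5. Both lines expressed HA-tagged H3.3, so the tag was common to every group. At day 15 the cells had been differentiated towards cardiomyocytes through embryoid bodies formed in hanging drops, and at day 0 they were undifferentiated and grown with LIF. Chromatin was digested with micrococcal nuclease without crosslinking and precipitated with an anti-HA antibody. One ChIP library and one input library were made per condition, so genotype and day cannot be told apart from the library, and no difference was tested between conditions. Intervals given with shares are exact 95% Clopper-Pearson intervals and cover counting error over regions only. Read depth per library is unknown here. The Hira-null lists held 7332 peaks at day 15 and 17706 at day 0, and the WT lists 27272 and 22730.

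H3.3 is the histone H3 variant that enters chromatin outside DNA replication. The HIRA complex is known for placing it at transcribed genes and regulatory elements, while ATRX and DAXX place it at telomeres and other repeated sequences. Peaks present without HIRA show positions where tagged H3.3 was called in the absence of that chaperone, and the route by which it arrived was not measured. Peak lists hold no expression, so the share of cardiomyocytes at day 15 was not assessed.

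Sequence windows of 300 bp were taken at the centre of the Hira-null and WT overlap, and 7 of them are printed to show the kinds of sequence the regions held. They are the 4 highest ranked regions and the highest ranked ones at a cardiac transcription factor, a smooth muscle gene and a matrix gene, leaving out windows that touch an annotated UTR. All are the plus strand of mm9 (NCBIM37), 5′ to 3′, and capitals mark matches on either strand to the motifs searched. GATA was searched as AGATAA, and TEAD as GGAATG. NKX2-5 was searched as TNAAGTG, and the MEIS motif as TGACAG. The T-box motif was searched as AGGTGT, AP-1 as TGANTCA and the poly(A) signal as AATAAA, beside MEF2, the SRF CArG box and CTCF. The windows lie at chr15:58270623-58270922 (an intron of D15Ertd621e), chr3:92049040-92049339 (an intron of Sprr2a2, upstream of Sprr2a3), chr3:92083965-92084264 (an intron of Sprr2a3), chr11:4968508-4968807 (between Gas2l1 and the end of Ewsr1), chr7:120051129-120051428 (past the end of Tead1), chr6:34675382-34675681 (an intron of Cald1) and chr2:13503665-13503964 (the last part of Vim, in an intron).
D15Ertd621e: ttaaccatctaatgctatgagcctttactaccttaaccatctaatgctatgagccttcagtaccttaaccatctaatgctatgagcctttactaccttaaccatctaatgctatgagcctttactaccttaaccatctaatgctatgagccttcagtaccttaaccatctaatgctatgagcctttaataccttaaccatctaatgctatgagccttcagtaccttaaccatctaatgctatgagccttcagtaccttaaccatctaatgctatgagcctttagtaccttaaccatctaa
Sprr2a2 and Sprr2a3: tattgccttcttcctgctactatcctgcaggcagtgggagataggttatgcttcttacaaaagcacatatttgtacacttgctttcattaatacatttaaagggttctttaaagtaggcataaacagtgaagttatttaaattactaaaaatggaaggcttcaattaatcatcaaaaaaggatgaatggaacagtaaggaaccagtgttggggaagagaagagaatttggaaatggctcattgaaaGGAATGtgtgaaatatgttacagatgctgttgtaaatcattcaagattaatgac
Sprr2a3: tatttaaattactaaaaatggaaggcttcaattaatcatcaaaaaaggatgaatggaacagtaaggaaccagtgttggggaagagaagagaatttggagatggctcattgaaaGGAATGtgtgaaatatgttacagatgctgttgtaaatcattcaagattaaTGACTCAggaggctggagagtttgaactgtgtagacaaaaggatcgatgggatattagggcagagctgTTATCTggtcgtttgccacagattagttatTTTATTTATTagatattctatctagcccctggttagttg
Gas2l1 and Ewsr1: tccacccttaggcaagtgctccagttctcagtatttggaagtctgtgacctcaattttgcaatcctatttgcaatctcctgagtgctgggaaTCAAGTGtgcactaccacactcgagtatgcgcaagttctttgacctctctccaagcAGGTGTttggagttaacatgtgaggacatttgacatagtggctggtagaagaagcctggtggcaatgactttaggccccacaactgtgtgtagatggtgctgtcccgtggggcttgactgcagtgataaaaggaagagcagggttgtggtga
Tead1: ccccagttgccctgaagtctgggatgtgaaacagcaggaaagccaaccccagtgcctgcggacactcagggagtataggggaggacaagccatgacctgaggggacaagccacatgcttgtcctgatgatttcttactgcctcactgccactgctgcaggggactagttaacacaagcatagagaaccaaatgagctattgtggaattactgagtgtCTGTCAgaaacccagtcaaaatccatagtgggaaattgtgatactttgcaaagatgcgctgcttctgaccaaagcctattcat
Cald1: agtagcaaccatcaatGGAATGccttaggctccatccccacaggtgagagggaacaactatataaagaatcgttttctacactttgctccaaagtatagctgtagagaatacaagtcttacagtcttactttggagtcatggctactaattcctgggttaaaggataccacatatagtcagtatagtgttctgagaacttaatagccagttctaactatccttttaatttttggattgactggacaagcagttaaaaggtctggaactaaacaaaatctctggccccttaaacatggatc
Vim: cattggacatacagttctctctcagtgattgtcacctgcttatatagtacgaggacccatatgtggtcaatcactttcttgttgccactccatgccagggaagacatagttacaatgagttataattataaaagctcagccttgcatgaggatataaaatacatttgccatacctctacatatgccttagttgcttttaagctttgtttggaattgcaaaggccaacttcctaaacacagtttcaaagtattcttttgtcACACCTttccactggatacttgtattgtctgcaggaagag
The D15Ertd621e window is a tandem array, in which 95.9% of bases matched the base 32 bp further on. The Sprr2a windows are copies of each other, with 1 mismatch over 167 aligned bases. The other 4 windows had no repeated 32-mer in mm9, and they held 1 or 2 motif matches each, with no GATA match among them. A motif match is a description of letters and not a bound site.

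The gained shared regions were mostly single peaks of each genotype lying on top of each other. In 1019 of 1103 regions there was 1 Hira-null and 1 WT peak, and in 1044 the 2 genotypes shared at least 50% of the shorter peak. Regions had a median width of 1257 bp, and ran from 347 to 16699 bp. Hira-null peaks covered a median of 867 bp, WT peaks 1011 bp and both together 721 bp. Hira-null peaks covered more bases in 406 regions, and WT peaks in 696.

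Peak strength was read from the score that MACS gave each peak, which grows as its p-value falls and has a lowest value of 50. The best peak of a region had a median score of 102 in Hira-null cells and 107 in WT cells. Because scores grow with depth, each was also given as a percentile of its own list, and the median percentiles were 56.7 in Hira-null and 64.4 in WT. A score of at least 100 in both genotypes was found in 328 of 1103 regions. Among all 1991 regions with a day 15 peak of both genotypes, day 0 peaks or not, the share was 41.4%, so 328 of 1103 is below that background. Scores in the 2 genotypes hardly moved together over the 1103 regions (Spearman rho 0.06, Pearson r of log2 scores 0.11), although the points share libraries and the same sequence. The Hira-null percentile was the higher one in 504 regions and the WT percentile in 599.

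**Figure D1:**
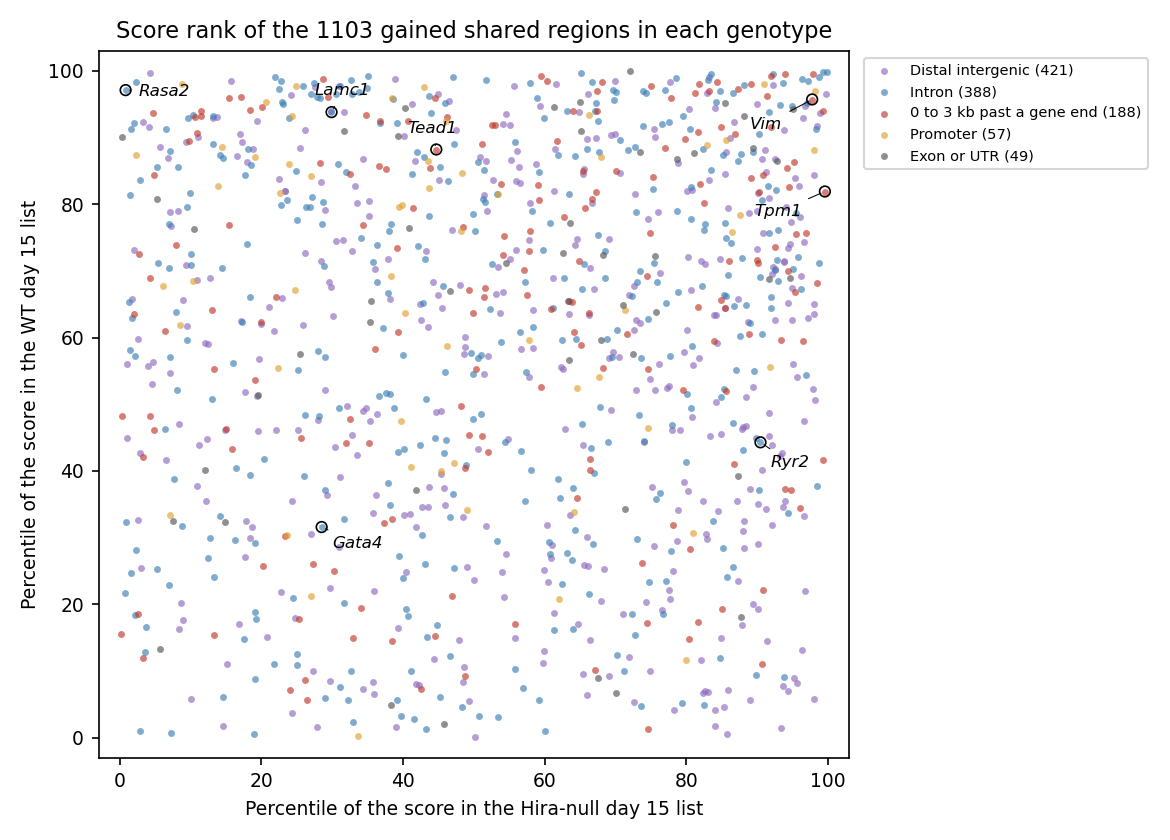
Each point is 1 of the 1103 gained shared regions, placed by the percentile of its best score in the Hira-null day 15 list (x axis) and in the WT day 15 list (y axis) and coloured by class of sequence. Points fill the whole square, with Vim high in both lists, Rasa2 high in WT only and Ryr2 higher in Hira-null cells.

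The edge of the choice was soft on both sides. The smallest overlaps that were kept measured 11, 14 and 20 bp. The smallest gaps between a Hira-null and a WT day 15 peak that did not overlap measured 0, 1 and 3 bp, where 0 bp means peaks that touch without a shared base. The pairs kept scored 56.99, 122.75 and 152.52 in Hira-null cells, against 186.29, 99.54 and 58.41 in WT cells. The pairs that did not overlap scored 50.75, 54.28 and 130.02 in Hira-null cells, against 183, 86.0 and 126.22 in WT cells. The last of them (chr11:79649684-79651719) still overlapped a gained shared region (chr11:79649586-79650735) in position. A pair apart can thus hold a peak that belongs to a gained shared region through another overlap. In all, 410 pairs with no day 0 peak lay within 1 kb of each other without overlapping. Pairs with a peak in a gained shared region were not taken out of that number. Newly gained describes the lists rather than an absence of H3.3 at day 0. The nearest day 0 peak of either genotype was a median of 15.8 kb away, it was within 1 kb in 117 regions and within 5 kb in 298, and it was more than 100 kb away in 108. Hira-null day 0 peaks lay farther off (median 49.0 kb) than WT day 0 peaks (median 22.8 kb).

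The regions lay just past gene ends more often than regions gained in only 1 genotype. By midpoint, 17.0% of them (14.9 to 19.4) fell in the 3 kb past the end of a protein-coding gene, against 8.46% (7.58 to 9.42) of regions gained in Hira-null cells only, 6.02% (5.70 to 6.36) of those gained in WT only and 2.30% of the genome. Regions in all 4 lists had a share of 14.9% (11 to 19.4), which overlaps that of the gained shared regions. The 3′ UTR held 3.90% of them, against 2.65% of Hira-null only, 2.31% of WT only and 0.895% of the genome. Introns held 35.2%, close to the 35.4% of the genome, against 30.5% of Hira-null only and 58.0% of WT only. Distal intergenic sequence held 38.2%, against 53.4% of Hira-null only, 22.1% of WT only and 57.4% of the genome. Promoters, taken as the 3 kb before a start, held 5.17%, against 3.34% of Hira-null only, 10.4% of WT only and 2.56% of the genome.

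**Figure D2:**
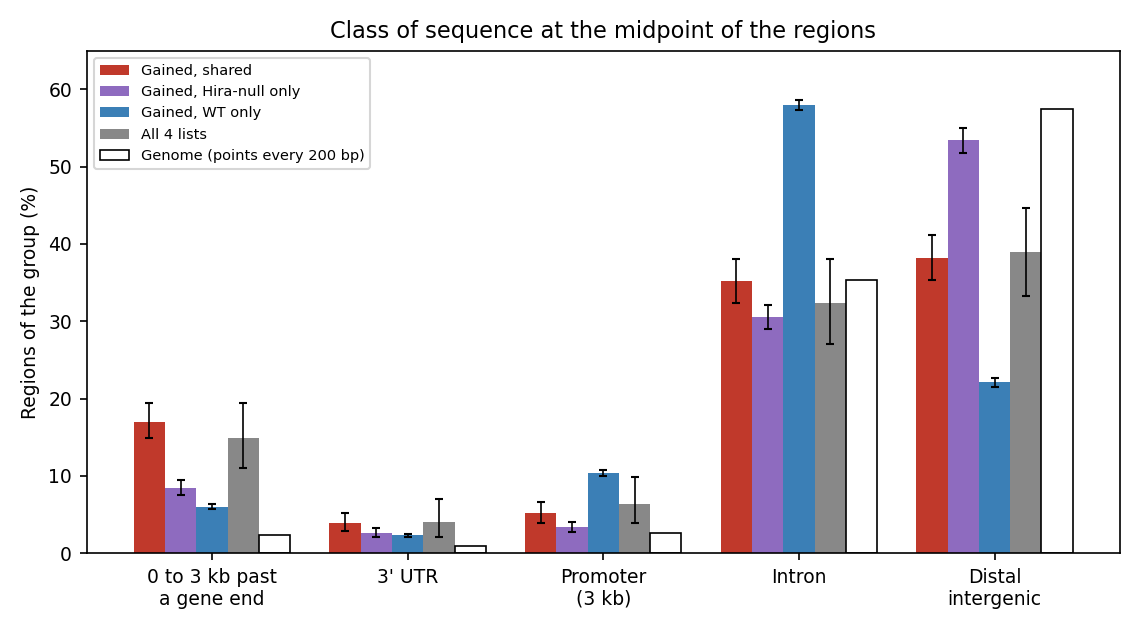
Share of regions in each class (y axis, %) for gained shared regions, regions gained in Hira-null only, regions gained in WT only, regions in all 4 lists and points spread over the genome. Bars carry exact 95% intervals except for the genome, and the red bar past gene ends reaches 17.0% where the genome has 2.30%.

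Measured as a distance, 280 of 1103 regions (25.4%) had their midpoint within 3 kb of a gene end, 191 past it and 89 before it. The share was 14.6% for Hira-null only, 12.0% for WT only and 28.7% for regions in all 4 lists. In the first 3 bins of 1 kb past the end there were 66, 69 and 56 regions, against 35 in the last 1 kb of the gene. Gene starts showed no such peak. Within 3 kb of a start lay 6.80% of gained shared regions, against 4.96% of Hira-null only and 15.7% of WT only, and in the first 1 kb after the start there were 4 regions.

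**Figure D3:**
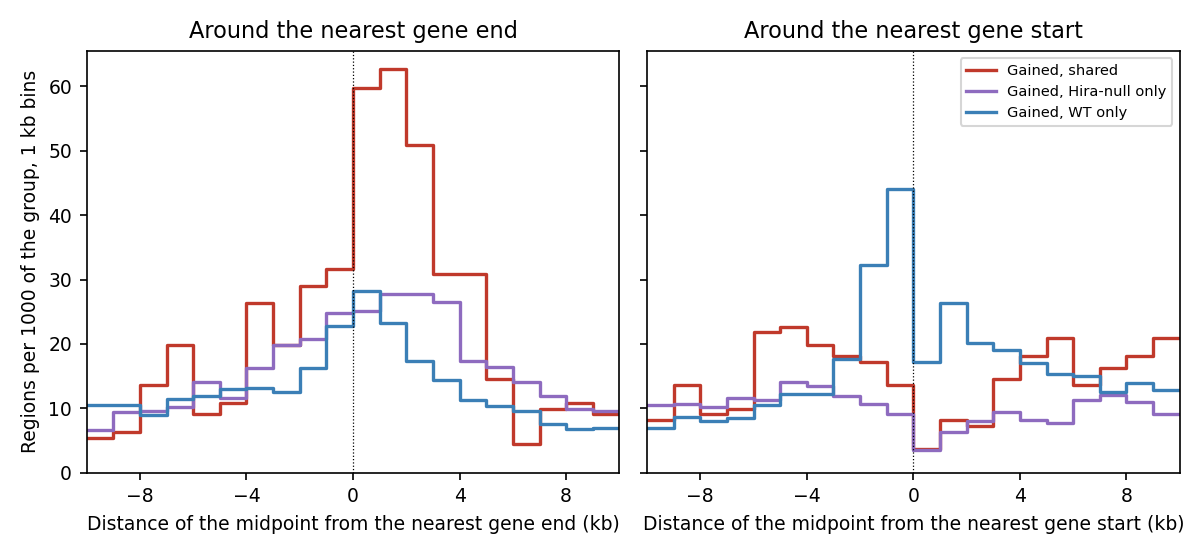
Midpoints of regions per 1000 of each group, in bins of 1 kb (y axis), by distance from the nearest gene end (left) and the nearest gene start (right), with positions past that point to the right of 0. Gained shared regions reach 62.6 per 1000 in the second bin past the end, where Hira-null only regions have 27.8 and WT only regions 23.2.

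Some genes of the cytoskeleton and matrix that carried such a region at their 3′ end are given as examples. They come from the gene lists described below, which were chosen with results of these data known. Regions counted for any of those lists made up 27 of the 280 within 3 kb of a gene end. The fibroblast and matrix list had 5 of them, and the actin cytoskeleton and adhesion list 5. At Vim, which encodes the intermediate filament vimentin of mesenchymal cells, the region (chr2:13502808-13506530) scored 937.31 in Hira-null cells and 304.61 in WT cells. It ranked high in both lists, at percentile 97.8 in Hira-null and 95.7 in WT. At Tpm1, a tropomyosin of muscle thin filaments, the region at the gene end (chr9:66865183-66874369) scored 2035.36 in Hira-null cells, where 1 peak spanned 9187 bp, and 155.91 in WT cells, where 2 peaks covered 2457 bp. At Myh10, a non-muscle myosin heavy chain, the region past the end (chr11:68628334-68633167) scored 387.49 in Hira-null cells and 608.99 in WT cells. Lamb1, a laminin chain of basement membranes, had a region at its end with scores of 55.45 in Hira-null cells and 258.88 in WT cells. Sparc, a collagen-binding matrix protein, had 1 over its last exon, with 378.15 in Hira-null cells and 115.49 in WT cells. Other gained shared regions of these genes could run the opposite way, with 189.44 in Hira-null cells and 111.62 in WT cells in a Myh10 intron, 122.03 in Hira-null cells and 72.66 in WT cells inside Lamb1, and 178.18 in Hira-null cells and 368.55 in WT cells in a Sparc intron. Which genotype scored higher thus differed between genes and between regions of a gene. Myh10 and Sparc lie on chromosome 11, which is described below. Ctgf, a secreted target of YAP and TEAD, had scores of 210.42 in Hira-null cells and 346.92 in WT cells at 0.121 kb past its end, and Cyr61, a related target, had 165.77 in Hira-null cells and 400.96 in WT cells at 1.04 kb past its end.

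**Figure D4:**
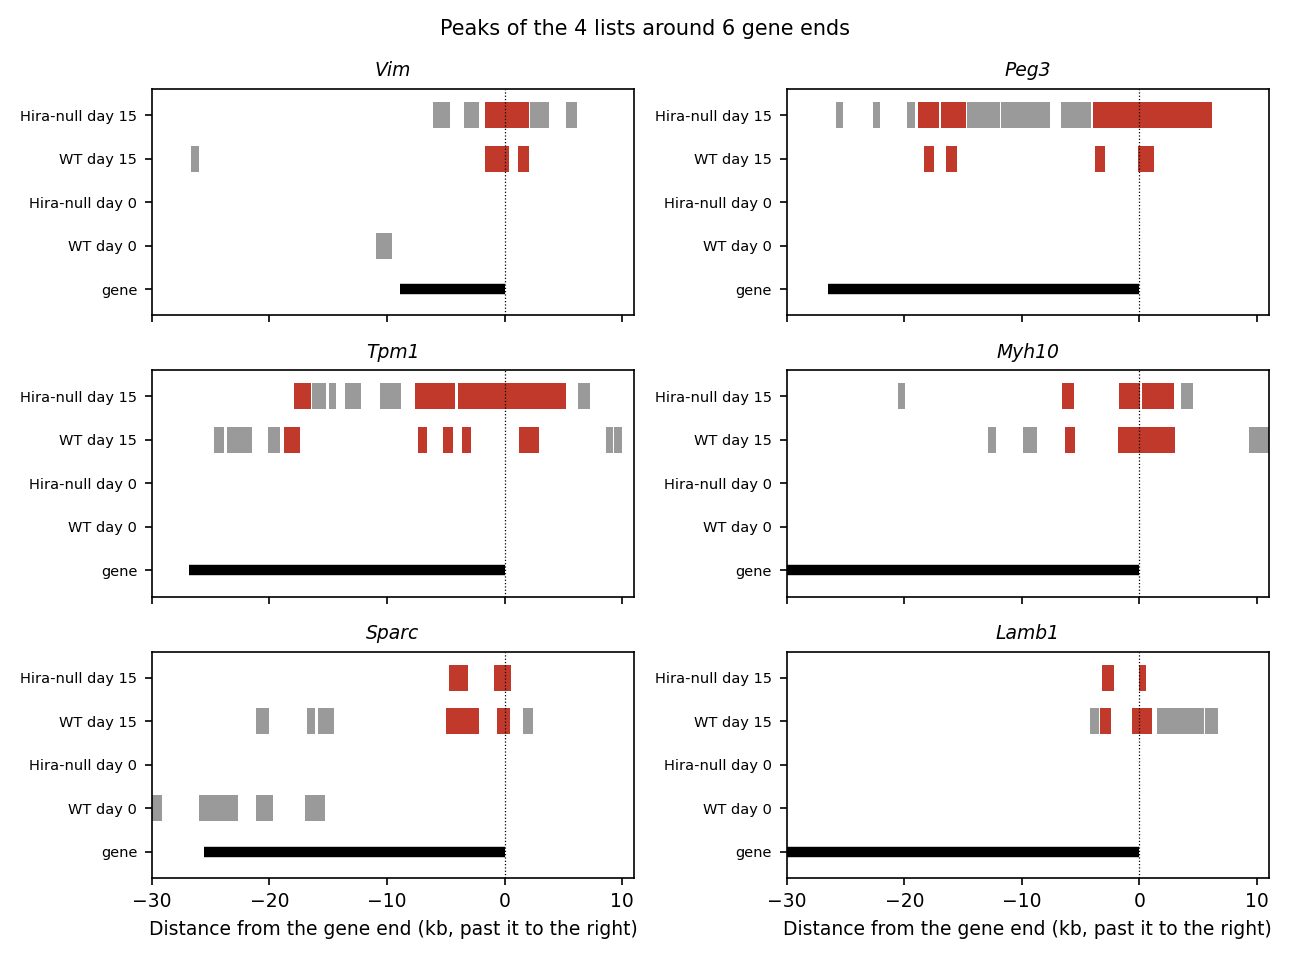
Peaks of the 4 lists (rows) around the ends of Vim, Tpm1, Sparc, Peg3, Myh10 and Lamb1, in kb from the gene end (x axis, past it to the right), with gained shared regions in red, other peaks in grey and the gene body in black. At Tpm1 and Peg3 a Hira-null peak of 9187 and 10142 bp spans the end where WT has short peaks. At the end of Lamb1 the WT peak is the longer, and in the red region inside Lamb1 the Hira-null peak is.

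Of the first 10 regions by rank, 7 had a 300 bp window of mostly repeated sequence. Ranking by the lower of the 2 percentiles put the region in D15Ertd621e first, with scores of 3100 in Hira-null cells, the highest value in that list, and 1092.87 in WT cells. All 32-mers taken from its 300 bp window occurred more than once in mm9, with a median of 23 copies. The next places went to 2 regions in the Sprr2a genes, which encode small proline-rich proteins of the epidermal barrier. They scored 1702.75 and 1229 in Hira-null cells, against 1032.37 and 568.85 in WT cells, and another near Sprr2a1 and Sprr2a2 scored 1081.47 in Hira-null cells and 361.06 in WT cells. In the windows of these 3 regions 87.0% to 100% of 32-mers were repeated, with a median of 2 or 3 copies. Reads from the gene copies may thus not be told apart there. Regions in 4933434I20Rik, in Naip2, which encodes an inflammasome receptor for bacterial proteins, and in intergenic sequence of chromosome 12 also had mostly repeated windows. The windows of the other 3 had no repeated 32-mer. Mostly repeated windows made up 11 of the 30 regions at percentile 90 or above in both lists (36.7%), and 26% of the 419 at percentile 50 or above in both. The region between Gas2l1, a linker of actin and microtubules, and Ewsr1, an RNA-binding protein, scored 971.97 in Hira-null cells and 765.76 in WT cells. The one in Bicd1, an adaptor of the dynein motor, scored 664.87 in Hira-null cells and 521.38 in WT cells, and that of Vim is given above. Day 0 peaks lay 0.208 kb from the Gas2l1 region and 0.085 kb from the Bicd1 region.

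Across all regions, a window was called mostly repeated when at least 50% of its 32-mers occurred more than once in mm9, and this held for 207 of 1103 (18.8%, 16.5 to 21.2). Regions are called mostly repeated by this window alone, and the rest of a region was not measured. The share was 22.6% (21.3 to 24.0) for Hira-null only, 1.06% (0.926 to 1.22) for WT only, 30.7% for regions in all 4 lists, 54.9% for regions shared at day 0 and lost, and 14.0% on a grid of 12800 genome windows. At this cutoff the share of gained shared regions was thus below that of Hira-null only and far above that of WT only. Windows with any repeated 32-mer made up 33.4% (30.6 to 36.2), against 50.6% for Hira-null only, 10.9% for WT only and 37.5% on the grid. Windows with all 32-mers repeated made up 7.16% (5.71 to 8.85), against 6.31% (5.54 to 7.15) for Hira-null only and 4.89% on the grid. The order against Hira-null only and against the grid thus depended on the cutoff. Among gained shared regions the share was 29.0% in distal intergenic sequence, 16.5% in introns and 6.91% past gene ends. Mostly repeated regions had a median percentile of 85.8 in Hira-null cells and 57.8 in WT cells, while the other 896 had 49.1 in Hira-null cells and 65.4 in WT cells. How reads with several matches were placed is not given in the sources used here, and their part in these peaks was not tested. With mostly repeated windows left out, 19.5% of regions lay past a gene end and 33.4% in distal intergenic sequence.

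GATA motifs, the sites of the zinc finger factors that include GATA4 and GATA6 of the heart, were found in 33.7% of windows (30.9 to 36.6). The share was 25.8% (24.4 to 27.3) for Hira-null only, 26.2% (25.5 to 26.8) for WT only, 19.9% for regions in all 4 lists and 19.2% (18.5 to 19.9) on the genome grid. With mostly repeated windows left out it was 32% for gained shared regions, against 25% for Hira-null only, 26.2% for WT only and 19.7% on the grid. Windows of the other groups were centred on the region and not on an overlap of peaks. Centred in that way, the gained shared regions had 31.8% (29.1 to 34.7). The share depended on the class of sequence. In distal intergenic sequence 41.8% of gained shared windows held a GATA match (37.0 to 46.7), against 30.9% (28.8 to 33.0) for Hira-null only and 30.6% (29.2 to 32) for WT only. In introns the values were 33.8%, against 22.0% for Hira-null only and 26.3% for WT only. Past gene ends they were 18.6%, against 14.7% for Hira-null only and 19.1% for WT only, with intervals that overlapped.

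Among motifs of other factors of heart and muscle, NKX2-5 matches lay in 21.8% of windows, against 13.9% for Hira-null only, 18.3% for WT only and 16.3% on the grid. Without mostly repeated windows the gained shared value was 19.2% (16.7 to 21.9), against 14% (12.7 to 15.3) for Hira-null only and 18.4% (17.8 to 18.9) for WT only, so the interval overlapped that of WT only and not that of Hira-null only. TEAD matches, bound by partners of YAP, lay in 22.3%, against 18.7% for Hira-null only, 17.7% for WT only and 15.7% on the grid. Without repeats they lay in 19.6% (17.1 to 22.4), against 17.6% (16.2 to 19.1) for Hira-null only and 17.8% (17.2 to 18.3) for WT only, with overlapping intervals. The grid then had 15.5% (14.8 to 16.2). Regions shared at day 0 and lost had TEAD matches in 25.7% of windows, or 20.9% without repeats. MEIS matches lay in 24.4% (21.9 to 27), against 18.4% (17.2 to 19.7) for Hira-null only, 21.1% (20.5 to 21.6) for WT only and 18.8% (18.1 to 19.5) on the grid. Without repeats they lay in 19.2% (16.7 to 21.9), against 18% for Hira-null only, 21.1% for WT only and 19.5% on the grid, all with overlapping intervals. AP-1 matches lay in 10.3% of windows, against 9.76% for Hira-null only and 13.1% for WT only. T-box matches lay in 12.6%, the SRF CArG box in 2.18% and MEF2 matches in 0.816%, each with an interval that included the value of the grid (14.6%, 1.78% and 0.734% in that order). A CTCF match was found in 1 window. The poly(A) signal lay in 31.6% of windows, against 26.9% for Hira-null only, 36.0% for WT only and 39.3% on the grid. Median GC was 41.0%, against 41.3% for Hira-null only, 42.3% for WT only and 41.3% on the grid.

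**Figure D5:**
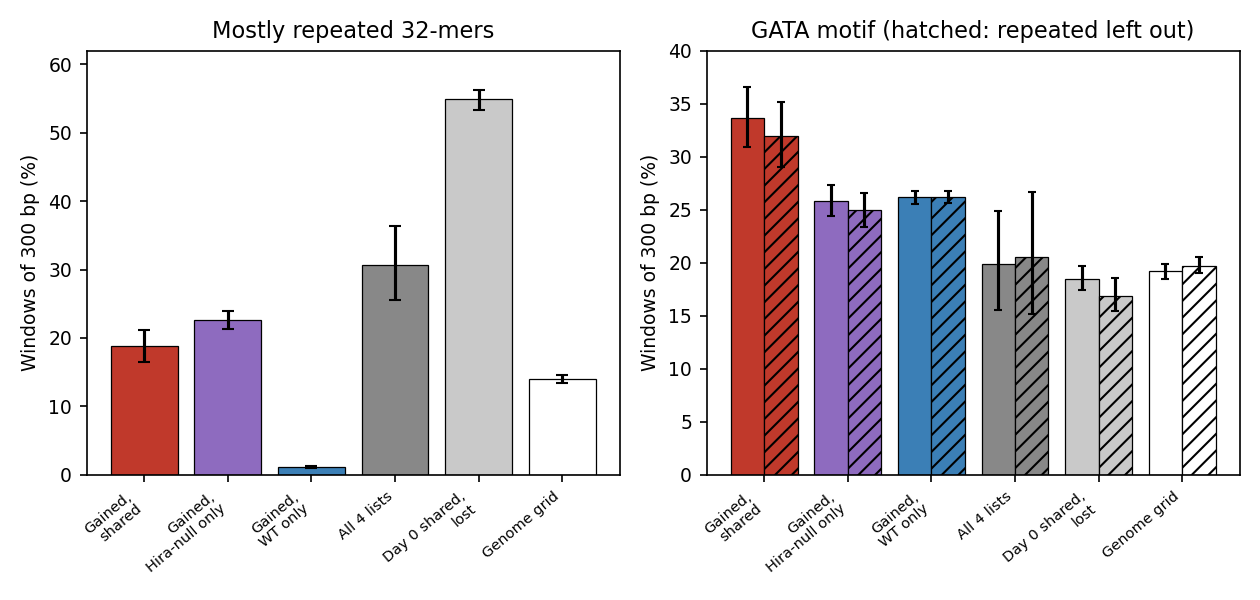
Left, share of 300 bp windows in which at least 50% of 32-mers are repeated in mm9; right, share of windows with a GATA match on either strand, with hatched bars for windows that are not mostly repeated (y axes, %; bars are exact 95% intervals). Gained shared regions stand at 18.8% repeated and at 33.7% with GATA, or 32% without repeats, where the genome grid has 19.2%.

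The regions in which the genotypes disagreed most in rank are given as examples, 5 in each direction. The 5 with the largest excess of the Hira-null over the WT percentile were all distal intergenic, with scores from 441.69 to 989.79 in Hira-null cells and from 50.66 to 54.61 in WT cells. The 5 with the largest excess of WT included an intron of Rasa2, which encodes a Ras GTPase-activating protein, with 50.25 in Hira-null cells and 368.34 in WT cells, and an intron of Lgr4, an R-spondin receptor of Wnt signalling, with 50.83 in Hira-null cells and 461.53 in WT cells. Another was distal intergenic, 121 kb past the end of Maf on chromosome 8, with 51.79 in Hira-null cells and 916.14 in WT cells. The region in an intron of Ubap2l had 50.69 in Hira-null cells and 230.93 in WT cells. That in the 3′ UTR of Cenpb, the centromere protein B gene, had 50.08 in Hira-null cells and 208.38 in WT cells. The windows of the 5 where WT was the stronger had no repeated 32-mers. Of the 5 where Hira-null was the stronger, 2 had mostly repeated windows, and the rest had 4.35% to 26.1% of 32-mers repeated.

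The widest region, of 16699 bp, lay on chromosome 6 at 23.8 kb past the end of Hrh1, the histamine H1 receptor gene. There 1 Hira-null peak with a score of 75.31 spanned the whole region, while 2 WT peaks, the better with 118.61, covered 5442 bp. The 32-mers of its 300 bp window had a median of 94 copies. It belonged to the largest cluster of gained shared regions joined at up to 12 kb, 7 regions over 44.9 kb, all mostly repeated, with 8 Hira-null and 9 WT day 15 peaks and 0 day 0 peaks. A second cluster of 4 repeated regions lay nearby (chr6:114553267-114581785). The next widest regions were 10499 bp at the end of Cct4 on chromosome 11 and 10142 bp at the end of Peg3. That of Cct4, a subunit of the TRiC chaperonin, scored 149.93 in Hira-null cells and 1223.38 in WT cells. Clusters with no mostly repeated region lay in Dnm3, a dynamin of membrane scission (4 regions over 15.9 kb), at Pdia3 and Serf2 (4 over 9.59 kb) and at Arf4, a small GTPase of Golgi transport (3 over 8.01 kb). Most regions stood alone, 890 of 1103.

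Chromosomes did not hold the regions evenly. There were 0.426 gained shared regions per Mb on the autosomes other than 8 and 11, 0.593 on chromosome 8, 0.783 on chromosome 11 and 0.0987 on X. Regions gained in Hira-null only had 0.881 per Mb on chromosome 8 and 0.716 on 11, against 1.57 on the other autosomes. Those gained in WT only were far denser on chromosomes 8 and 11, with 21.2 and 32.9 per Mb, against 6.18 on the other autosomes. The 167 gained shared regions of chromosomes 8 and 11 had median percentiles of 45.2 in Hira-null cells and 79.6 in WT cells, while the 917 of the other autosomes had 58.1 in Hira-null cells and 63.4 in WT cells. On X there were 16 regions, 15 of them mostly repeated and 14 with the higher percentile in Hira-null cells.

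Genes were counted when a region touched the window from 10 kb before the start to 200 bp past the end. Of 22367 protein-coding genes, 692 (3.09%) had a gained shared region, and 599 of these had just 1. Windows of genes with a region were longer, with a median of 41.9 kb, against 25.6 kb for all genes, and longer windows meet more peaks. Members of 15 gene lists are given below against the 3.09% of all genes. The lists were chosen with results of these data known, and no list was tested.

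Among muscle genes, 4 of 24 sarcomere genes had a region, Tpm1 (3 regions), Ryr2, Mybpc3 and Tnnc1. The 2 further Tpm1 regions lay in introns, with scores of 733.96 and 153.28 in Hira-null cells, against 91.82 and 143.81 in WT cells, and Tpm1 had 0 day 0 peaks in either genotype. Ryr2, the calcium release channel of cardiac muscle, had 1 intronic region with 342.96 in Hira-null cells and 81.03 in WT cells, in sequence with a median of 70 copies. The region counted for Mybpc3, the cardiac myosin-binding protein, lay in an intron of the neighbouring gene Sfpi1, and that of Tnnc1, the cardiac troponin C gene, in an intron where Nisch is annotated too. Of 16 smooth muscle genes, Cald1, which encodes the actin-binding protein caldesmon, had 2 regions. The one over its 3′ UTR scored 544.39 in Hira-null cells and 264.9 in WT cells. Tpm2 shared 1 region with Tln1, the talin of focal adhesions, with 60.23 in Hira-null cells and 91.03 in WT cells.

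Of 30 cardiac transcription factors, 2 had a region (6.67%). Tead1, a TEA domain factor, had one 1.07 kb past its end (chr7:120050146-120052628) with scores of 84.51 in Hira-null cells and 192.19 in WT cells. Its gene window held 0 Hira-null and 26 WT day 15 peaks, since the Hira-null peaks of this region began more than 200 bp past the end. Gata4 had 1 intronic region with 67.81 in Hira-null cells and 70.99 in WT cells, low in both lists at percentiles of 28.5 and 31.6. Its window held 6 Hira-null and 7 WT day 15 peaks. Endothelial and blood genes (0 of 18), neural genes (0 of 20), pluripotency genes (0 of 22) and H3.3 chaperones (0 of 10) had no gained shared region. These lists are short beside a background of 3.09%. Their genes with a Hira-null day 15 peak of any kind in the window numbered 4, 2, 1 and 4 in that order.

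Matrix and cytoskeleton genes had larger shares, which depended on the choice of peaks. Their windows were also longer, with medians of 62.1 kb for fibroblast and matrix and 43.4 kb for actin cytoskeleton and adhesion. All genes had 25.6 kb, and the imprinted and splicing lists given below had 35.8 and 25.5 kb. Of 28 fibroblast and matrix genes, 5 had a region (17.9%), namely Fn1, Lamc1, Vim, Sparc and Lamb1. The count was 3 with a day 15 score of at least 100, where 235 of all 22367 genes had a region. Without a day 0 peak within 5 kb it was 3 (494 of all genes). It was 6 with each list cut to the length of the shortest, by score (505 of all genes). Fn1, which encodes fibronectin, had one 0.496 kb past its end with scores of 408.52 in Hira-null cells and 127.66 in WT cells. Lamc1, a laminin chain, had an intronic region with 69.01 in Hira-null cells and 257.03 in WT cells. Of 26 genes in the list named actin cytoskeleton and adhesion, 8 had a region (30.8%), Myh10, Myh9, Krt8, Krt19, Cd44, Tln1, Actn1 and Palld. Krt8 and Krt19 are keratin and not actin genes, and the Krt19 region lay 8.37 kb before its start. With a score of at least 100 at day 15 the count was 1 of 26, where genes with a region numbered 235 of all 22367. It was 2 with that score asked of all 4 lists (357 of all genes). It was 3 with each list kept to as many top peaks as the shortest list holds (505 of all genes). It was 5 without a day 0 peak within 5 kb (494) and 5 without chromosomes 8 and 11 (595). Krt8, an epithelial keratin, had one past its end with 523.68 in Hira-null cells and 75.05 in WT cells. Myh9, another non-muscle myosin, had one over its 3′ UTR with 151.68 in Hira-null cells and 95.94 in WT cells, and an intronic one with 64.43 in Hira-null cells and 171.08 in WT cells. Palld, an actin-bundling scaffold, had 1 Hira-null and 59 WT day 15 peaks in its window. It lies on chromosome 8, where regions gained in WT only numbered 21.2 per Mb, against 6.18 on autosomes other than 8 and 11. Its gained shared region, at 0.992 kb past the end, scored 56.3 in Hira-null cells and 106.64 in WT cells.

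Imprinted genes, expressed from 1 parental allele, had the highest share of the lists, 9 of 23 (39.1%). These were Peg3, Zim1, Mest, Peg10, Sgce, Igf2r, Kcnq1, Gnas and Grb10. A Hira-null day 15 peak of any kind lay in the windows of 17 of the 23. That number was 25 of 32 for splicing and RNA-binding genes and 13 of 26 for actin cytoskeleton and adhesion genes. Zim1 was counted only through the region at the end of Peg3, whose midpoint lay 6.3 kb before the Zim1 start. With lists of equal length in the same way, the count was 5, where 505 of all 22367 genes had a region. With a day 15 score of at least 100 it was 6 (235 of all genes). Their 14 regions ranked higher in the Hira-null list in 10 cases, with median percentiles of 78.5 in Hira-null cells and 63.9 in WT cells, where all 1103 had 56.7 and 64.4. At the end of Peg3, a paternally expressed zinc finger gene, the 10142 bp region (chr7:6650395-6660536) scored 755.19 in Hira-null cells and 133.44 in WT cells. In its introns 2 more scored 417.23 and 330.97 in Hira-null cells, against 122.29 and 81.67 in WT cells, and Peg3 had 0 day 0 peaks. The region over the 3′ part of Mest, which encodes a hydrolase-like protein of mesoderm, had its midpoint 0.857 kb past the end of Copg2 and scored 1169.23 in Hira-null cells and 114.33 in WT cells. Gnas, the stimulatory G protein alpha subunit, had a region of 5434 bp with 991.1 in Hira-null cells and 191.06 in WT cells. In the window of that region 69.6% of 32-mers were repeated. Grb10, a growth factor receptor adaptor on chromosome 11, ran the other way, with 227.8 in Hira-null cells and 502.36 in WT cells. Over chromosomes 8 and 11, gained shared regions had median percentiles of 45.2 in Hira-null cells and 79.6 in WT cells. Igf2r, the receptor that clears IGF2, had 3 intronic regions whose scores ran from 71.67 to 97.37 in Hira-null cells and from 52.81 to 154.52 in WT cells.

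Of 32 splicing and RNA-binding genes, 9 had a region (28.1%), and most of these regions lay near H3.3 of day 0. A day 0 peak lay within 5 kb of 9 of their 10 regions, against 298 of all 1103. Without such regions the count was 1 gene, where 494 of all 22367 genes had a region. It was 5 with a day 15 score of at least 100 (235 of all genes) and 4 with peaks under 1 kb apart merged (664). The count was higher, at 12, with a score of at least 100 in all lists (357 of all genes). It was also 12 with lists of equal length (505 of all genes). Ddx17, an RNA helicase, had 2 intronic regions, the better with scores of 221.26 in Hira-null cells and 192.61 in WT cells. Srrm1, a splicing coactivator, had one 0.269 kb past its end with 182.77 in Hira-null cells and 315.67 in WT cells. Srsf3, a serine and arginine rich splicing factor, had one with 324.63 in Hira-null cells and 92.6 in WT cells, 0.053 kb from a day 0 peak. The others were Hnrnpa2b1, Hnrnpf, Hnrnpl, Ptbp1, Rbm39 and Tra2b. Of 25 translation genes, Eif4b, Eif3a, Eif4g1 and Npm1 had a region (16%). With a day 15 score of at least 100 the count was 1 (235 of all genes). With lists of equal length it was 5 (505 of all genes). Of 16 endoderm genes and 19 housekeeping genes, 1 each had a region, Dab2 and Ywhaz.

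Counted over all genes, 19 had 3 or more regions, and the most lay in very long annotated spans. Gm20388, whose annotated window of 4445 kb runs over many other genes of chromosome 8, had 9, and Fgfr2, a fibroblast growth factor receptor annotated with a window of 3019 kb, had 4, within or beside Tacc2, Oat and Zranb1. Dnm3 had 6 regions, with scores from 56.99 to 221.54 in Hira-null cells and from 72.13 to 240.94 in WT cells, and no day 0 peak of either genotype in its window of 506 kb. Among the genes with 3 regions each, Tpm1, Peg3, Sprr2a2, Pard3, a cell polarity scaffold, Arf4 and Dpm1, a mannosyltransferase subunit, had the most bases covered, and Eif4b and Igf2r had 3 too. In Pard3, which lies on chromosome 8, the best region scored 130.23 in Hira-null cells and 463.89 in WT cells. Its window held 5 Hira-null and 55 WT day 15 peaks, on a chromosome dense in regions gained in WT only.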

How the data were processed

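H3.3-HA ChIP-seq was performed on Hira-null and WT mESCs at day 15 and day 0. According to the study's methods and the submitters' notes, Bowtie placed the read pairs on mm9, Samtools took out duplicates, and MACS 1.4.2 gave the peaks. The authors deposited 1 peak list per condition with a score for each peak, which by its range and lowest value is read as −10 log10 of the p-value. The control behind each list and the read depth are not given in the files used here, and the 4 input libraries were not analysed here. Replicates were not pooled, since each list comes from 1 ChIP library.

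Peaks were merged and assigned in Python 3.11.15, using pandas 2.3.3 and numpy 2.4.6. Intervals came from scipy 1.17.1 and figures from matplotlib 3.10.9. Merging was checked against bedtools 2.31.1 (58310 regions and 1103 gained shared regions by either) and tested on simulated lists. Genes came from GENCODE M1 on NCBIM37. Classes were taken at the midpoint with promoters first, then the 3 kb past gene ends, UTRs, coding exons and introns, and the rest called distal intergenic, and genome shares came from points every 200 bp. Repeats were measured as 32-mers taken every 12 bp of a 300 bp window, a measure added after the data were seen, because the genome file marks none. No p-values were computed. The regions and the gene lists were chosen with earlier results of these data known. H19, Meg3, Rian, Mirg, Kcnq1ot1, Zac1, Airn, Sox1, Map2 and Hprt1 were not found among protein-coding genes and left out of the lists.

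Named were the 10 regions with the highest lower percentile, the 5 with the largest difference of percentiles in each direction, the 3 widest, the 5 largest clusters, the 10 genes with the most regions, list genes with a region, and 3 pairs on each side of the overlap rule. Alternatives were a larger overlap, a distance to day 0 peaks, score thresholds, equal list lengths, merging of near peaks, chromosomes, and other definitions of class and gene. Leaving out mostly repeated windows and the values of single lists under each alternative were chosen after seeing the data. A further gene that the rule would name is not reported here.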

Additional observations from a re-analysis of the deposited data

How the results depend on the processing

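The number of gained shared regions, 1103, was 328 with a day 15 score of at least 100, 459 with that score in all lists and 611 with lists of equal length. Genes with a region numbered 235 and 357 under the score thresholds. The share past gene ends, 17.0%, was 21.3% and 22.7% under them, 21.1% with equal lists, 20.4% by any overlap, 14.3% without a day 0 peak within 5 kb, 14.7% with peaks under 1 kb apart merged and 19.5% without mostly repeated windows. The distal intergenic share was 34.1%, 30.1%, 28.2% and 33.4% under the score thresholds, equal lists and repeats left out. The intron share was 26.6% by any overlap. The promoter share was 3.05% with a day 15 score of at least 100, 9.33% with equal lists, 7.25% by any overlap and 1.36% with a promoter of 1 kb. Of the other values recomputed, 60 stayed within 1.5 times or inside the interval and 24 moved. No paired analysis was possible because each condition has 1 ChIP library. Low scores sit near the calling threshold, and depth may set which peaks were called.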

Other observations

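Of the 421 gained shared regions in distal intergenic sequence, 11 had their midpoint in a lincRNA gene, 11 in a processed transcript and 5 in a pseudogene of GENCODE M1. One lay in Airn, the long antisense RNA of the imprinted Igf2r locus (chr17:13001937-13003408), and another in Has2as, antisense to the hyaluronan synthase gene Has2. One lay in Snhg4, a small nucleolar RNA host gene. For lincRNA genes the share was 2.61% (1.31 to 4.63), against 3.05% (2.33 to 3.91) for distal regions gained in Hira-null only and 3.47% (2.95 to 4.05) for those gained in WT only, with overlapping intervals.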
